A study of Mus musculus with 55 samples.

Results

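Corticosterone, the main glucocorticoid of mice, was compared with placebo in gonadal white fat (goWAT) of mice kept at room temperature. The comparison took every column of the goWAT count table that the labels name GC_RT, 5 libraries, against every one named Ctrl_RT, 4 libraries, which is 9 of the 55 libraries of the series. GC_RT stands for corticosterone in the drinking water for 4 weeks at 22 °C, and Ctrl_RT for placebo over the same weeks at the same temperature. Both groups came from male C57BL/6NRj mice, 10 weeks of age as the labels give it, and RNA was taken from areas of frozen sections cut out by laser capture microdissection. How the areas were chosen is not given in the sources used here. The other 10 goWAT libraries, 5 GC_CT and 5 Ctrl_CT, came from the same treatments at 13 °C and entered the same fit. No label links a library to an animal, so p-values measure the spread between these libraries, some of which may share an animal.

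Glucocorticoids cross the cell membrane and bind the glucocorticoid receptor, a transcription factor held in the cytoplasm by heat shock proteins and co-chaperones. In adipocytes the receptor acts on genes of lipid storage, lipid breakdown and hormone secretion, in immune cells it lowers inflammatory genes, and it can shift the phase of circadian clocks in peripheral tissues. White adipocytes store triglyceride in 1 large droplet and release leptin and adiponectin, and gonadal fat also holds macrophages, vessels, progenitors and a mesothelial sheet, and lies against the epididymis.

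Libraries held 12310822 to 38273929 gene counts in GC_RT and 31977093 to 47452558 in Ctrl_RT. Log2 CPM, counts per 1000000 after scaling by TMM, a library scaling factor, correlated at 0.850 to 0.952 between GC_RT libraries and at 0.949 to 0.965 between Ctrl_RT libraries, with no 2 columns alike in their counts. GC_RT replicate 4 had the lowest correlations, 0.850 to 0.870 with the other GC_RT libraries. White adipocyte markers, 17 genes with Adipoq, Fabp4 and Plin1 among them, were detected in every library, and none of the 17 was at 0. Their summed level ran from 84817 to 457099 CPM in GC_RT and from 121822 to 173597 CPM in Ctrl_RT. The top value belongs to GC_RT replicate 2, the shallowest library, where the 50 most abundant genes took 59.3% of counts, against 28.3% to 41.5% in the other 8. TMM factors ran from 0.639 in GC_RT replicate 2 to 1.24 in GC_RT replicate 5, and from 0.975 to 1.06 in Ctrl_RT. A factor below 1 raises every CPM value of its library, and a factor above 1 lowers it. Brown adipocyte markers summed to 1493 CPM in GC_RT replicate 1 and to 49.1 to 216 CPM in the other 8 libraries, with Ucp1, the uncoupling protein of brown fat, at 473 CPM there and at 0.382 to 13.7 CPM elsewhere. Epididymal markers summed to 2036 CPM in GC_RT replicate 5 and to 3.40 to 62.6 CPM in the other 8, with Crisp1, a secreted protein of the epididymis, at 1288 CPM there, 48.0 CPM in Ctrl_RT replicate 1 and 1.81 to 10.0 CPM in the other 7. Where a fit without these libraries changed a call or moved a list's count by more than 1.5 times, its value stands beside the result below.

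At an adjusted p under 0.05, 1206 of 20175 genes tested differed between GC_RT and Ctrl_RT, 5.98% of them, with 632 higher (3.13%) and 574 lower (2.85%) in GC_RT. Adjusted p-values throughout are Benjamini-Hochberg values over all 20175 genes from the quasi-likelihood test of edgeR, and a gene is said to have risen, fallen or been called where that p was under 0.05. Fold changes are log2 ratios of GC_RT over Ctrl_RT with an approximate standard error (SE), and levels are listed by replicate number. That SE is the absolute log2 fold change divided by the square root of the F statistic of the test. In bulk tissue, fewer cells of a type and less RNA per cell cannot be told apart, which holds for every gene below. In 1678 genes (8.32%) the 5 GC_RT libraries did not overlap the 4 Ctrl_RT libraries, 792 of them higher (3.93%) and 886 lower (4.39%). The median over all genes was 0.05, and 10752 of the 20175 fold changes were positive. Counts of called genes in the lists below are to be read against the 5.98%, and genes without overlap against the 8.32%. The number called moved by more than 1.5 times when 1 library was left out, to 567 without Ctrl_RT replicate 4, 703 without Ctrl_RT replicate 3, 803 without Ctrl_RT replicate 2 and 1973 without GC_RT replicate 1. Without GC_RT replicates 2 and 4 it was 709, and without GC_RT replicates 1 and 5 it was 1994. The genes named as called below kept their call without any 1 of the 9 libraries unless the text says otherwise, which was so for 92 of 102. Calls lost without GC_RT replicates 2 and 4 together are given with the gene.

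Classical target genes moved in both directions. In a list of 25 tested target genes of the receptor 6 rose and 6 fell, 48.0% against the 5.98% of all genes, with a median of 0.32, and 10 to 14 were called without any 1 of the 9 libraries or either pair. Fkbp5 encodes a co-chaperone that binds the receptor complex and lowers its affinity for hormone. It had 119.7, 185, 176, 222 and 154 CPM in GC_RT and 38.2, 35.4, 64.8 and 34.7 CPM in Ctrl_RT. Every GC_RT library lay above every Ctrl_RT library, and the difference was 1.98 ± 0.38 (edgeR adjusted p = 0.00301). Cdkn1a, the cell cycle inhibitor p21, had 159, 198, 397, 328 and 214 CPM in GC_RT and 14.4, 36.0, 8.14 and 26.9 CPM in Ctrl_RT, again without overlap, and rose by 3.60 ± 0.44 (edgeR adjusted p = 3.59e-05). The targets that were lower in GC_RT included Sgk1, a kinase that acts on ion channels and transporters. Sgk1 had 70.8, 29.9, 41.6, 24.03 and 36.4 CPM in GC_RT and 127, 149, 205 and 271 CPM in Ctrl_RT, all 5 GC_RT libraries below all 4 Ctrl_RT libraries, a difference of -2.21 ± 0.35 (edgeR adjusted p = 0.000735). Cebpd, a transcription factor of early adipogenesis (-2.42 ± 0.45), Nfkbia, the inhibitor of NF-kappaB (-1.73 ± 0.32), Klf15, a Krüppel-like factor of metabolic genes (-1.54 ± 0.24), and the clock gene Per1 (-1.51 ± 0.25) fell as well, with edgeR adjusted p-values of 0.00265, 0.00262, 0.000656 and 0.00115. Tsc22d3, the gene of GILZ, a mediator of anti-inflammatory hormone effects, ran from 281 to 1076 CPM in GC_RT and from 386 to 507 CPM in Ctrl_RT, with a difference of 0.40 ± 0.40 that was not called (edgeR adjusted p = 0.595). Klf9 was not called either (0.03 ± 0.23, edgeR adjusted p = 0.964).

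The receptor gene itself, Nr3c1, had 71.6, 112, 85.9, 152 and 157 CPM in GC_RT and 136, 108, 116 and 89.5 CPM in Ctrl_RT. The groups overlapped, and the difference of 0.04 ± 0.24 was not called (edgeR adjusted p = 0.942). Hsd11b1, whose enzyme regenerates active corticosterone inside adipocytes, had 367, 415, 390.1, 656 and 516 CPM in GC_RT and 326, 228, 258 and 292 CPM in Ctrl_RT. All 5 GC_RT libraries were above the 4 Ctrl_RT libraries, yet the difference of 0.76 ± 0.38 missed the threshold (edgeR adjusted p = 0.241). Hsp90aa1, the chaperone that holds the receptor, rose by 1.25 ± 0.30 (edgeR adjusted p = 0.015), a call lost without Ctrl_RT replicate 3 (adjusted p = 0.0607) or replicate 4 (adjusted p = 0.0561). Of 14 tested genes of the receptor system, 2 rose and 1 fell, with a median of 0.14, and 1 in all was called without Ctrl_RT replicate 3.

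The upstream sequence of Sgk1 is shown because it holds a full palindromic glucocorticoid response element, AGAACA followed after any 3 bases by TGTTCT, and Sgk1 fell. The 250 bases before the start of transcription were searched on both strands in 32851 promoters of RefSeq (GRCm38.p6). The element was present in 3 of them (0.00913%), and 1 of the 10 called targets with a promoter in that table, Sgk1, held it. RefSeq lists 6 starts for Sgk1, and the matching one lies on the plus strand, with the window at chr10:21993640-21993889 and the element, in capitals, beginning 189 bases before the start. A match gives only the letters and is not a measured binding site.
Sgk1: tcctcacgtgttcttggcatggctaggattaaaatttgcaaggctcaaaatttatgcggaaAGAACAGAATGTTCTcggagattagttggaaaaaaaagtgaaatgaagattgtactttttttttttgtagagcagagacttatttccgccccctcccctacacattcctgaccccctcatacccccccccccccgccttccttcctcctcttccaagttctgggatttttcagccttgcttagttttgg

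The metallothionein genes showed some of the largest rises. Metallothioneins are small cysteine-rich proteins that bind zinc and copper and are induced by metals and by glucocorticoids. Mt1 had 1154, 5027, 2333, 3459 and 2212 CPM in GC_RT and 313, 252, 226 and 239 CPM in Ctrl_RT. Mt2 had 109, 476, 273, 643 and 419.8 CPM in GC_RT and 28.4, 17.4, 19.4 and 22.0 CPM in Ctrl_RT. For both genes the lowest GC_RT library, replicate 1, was still above the highest Ctrl_RT library. The rises were 3.46 ± 0.40 for Mt1 and 4.14 ± 0.49 for Mt2, with edgeR adjusted p-values of 2.35e-05 and 2.92e-05. Among 18 tested metallothionein and zinc transporter genes 2 rose and 1 fell, and the median of 0.12 lay near the 0.05 of all genes. Without GC_RT replicates 1 and 5 the count was 5.

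Both upstream windows are shown with the metal response element, the site of the zinc-sensing factor Mtf1, searched as TGCACNC or TGCGCNC, with N as any base, on both strands. It occurred in 7032 of the 32851 promoters (21.4%), so a match is common. The 250 bases before Mt2 (chr8:94172368-94172617, plus strand) held 3 matches, beginning 223, 128 and 50 bases before the start, and those before Mt1 (chr8:94178839-94179088, plus strand) held 1, beginning 23 bases before the start. Capitals mark the matches.
Mt2: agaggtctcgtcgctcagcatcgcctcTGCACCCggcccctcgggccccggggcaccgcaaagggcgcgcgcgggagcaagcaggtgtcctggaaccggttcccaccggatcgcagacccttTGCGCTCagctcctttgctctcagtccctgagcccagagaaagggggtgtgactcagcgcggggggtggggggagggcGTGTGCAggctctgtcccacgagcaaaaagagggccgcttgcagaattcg
Mt1: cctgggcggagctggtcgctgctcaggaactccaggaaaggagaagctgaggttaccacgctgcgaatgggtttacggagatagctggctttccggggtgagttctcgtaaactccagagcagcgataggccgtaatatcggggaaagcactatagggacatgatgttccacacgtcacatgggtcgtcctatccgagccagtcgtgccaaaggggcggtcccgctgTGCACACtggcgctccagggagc

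The small heat shock protein genes Hspb7, Cryab and Hspb1 rose. Hspb7, a small heat shock protein known mainly from heart and skeletal muscle, had 269, 549, 696, 286 and 216 CPM in GC_RT and 1.85, 1.89, 1.98 and 1.22 CPM in Ctrl_RT. The lowest GC_RT library exceeded the highest Ctrl_RT library by a wide margin, and the difference was 7.86 ± 0.69 (edgeR adjusted p = 1.4e-06). Cryab, alphaB-crystallin, another small heat shock protein, had 295, 595, 446, 939.6 and 487 CPM in GC_RT and 124, 64.1, 51.4 and 26.7 CPM in Ctrl_RT, without overlap, and rose by 3.05 ± 0.57 (edgeR adjusted p = 0.00306). Hspb1, known as Hsp25, rose by 1.73 ± 0.36 (edgeR adjusted p = 0.00525). Of 22 tested heat shock proteins and co-chaperones 5 rose and 0 fell, with a median of 0.55, and 3 were called without Ctrl_RT replicate 3 or without Ctrl_RT replicate 4. Summed skeletal muscle markers, tissue that also makes Hspb7 and Cryab, ran from 67.9 to 329 CPM in GC_RT and from 46.4 to 236 CPM in Ctrl_RT. Over the 10 markers GC_RT replicate 2 stood apart, with a mean log2 CPM of 3.92 and 0 markers at 0, against -0.40 to 0.16 in the other GC_RT libraries and -0.23 to 0.27 in Ctrl_RT, with 0 to 3 markers at 0. In the other 4 GC_RT libraries Hspb7 stood at 216 to 696 CPM. Of the 10 muscle markers 2 rose, as given below. Whether muscle tissue had a part in the rises of Hspb7 and Cryab was not tested.

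**Figure D1:**
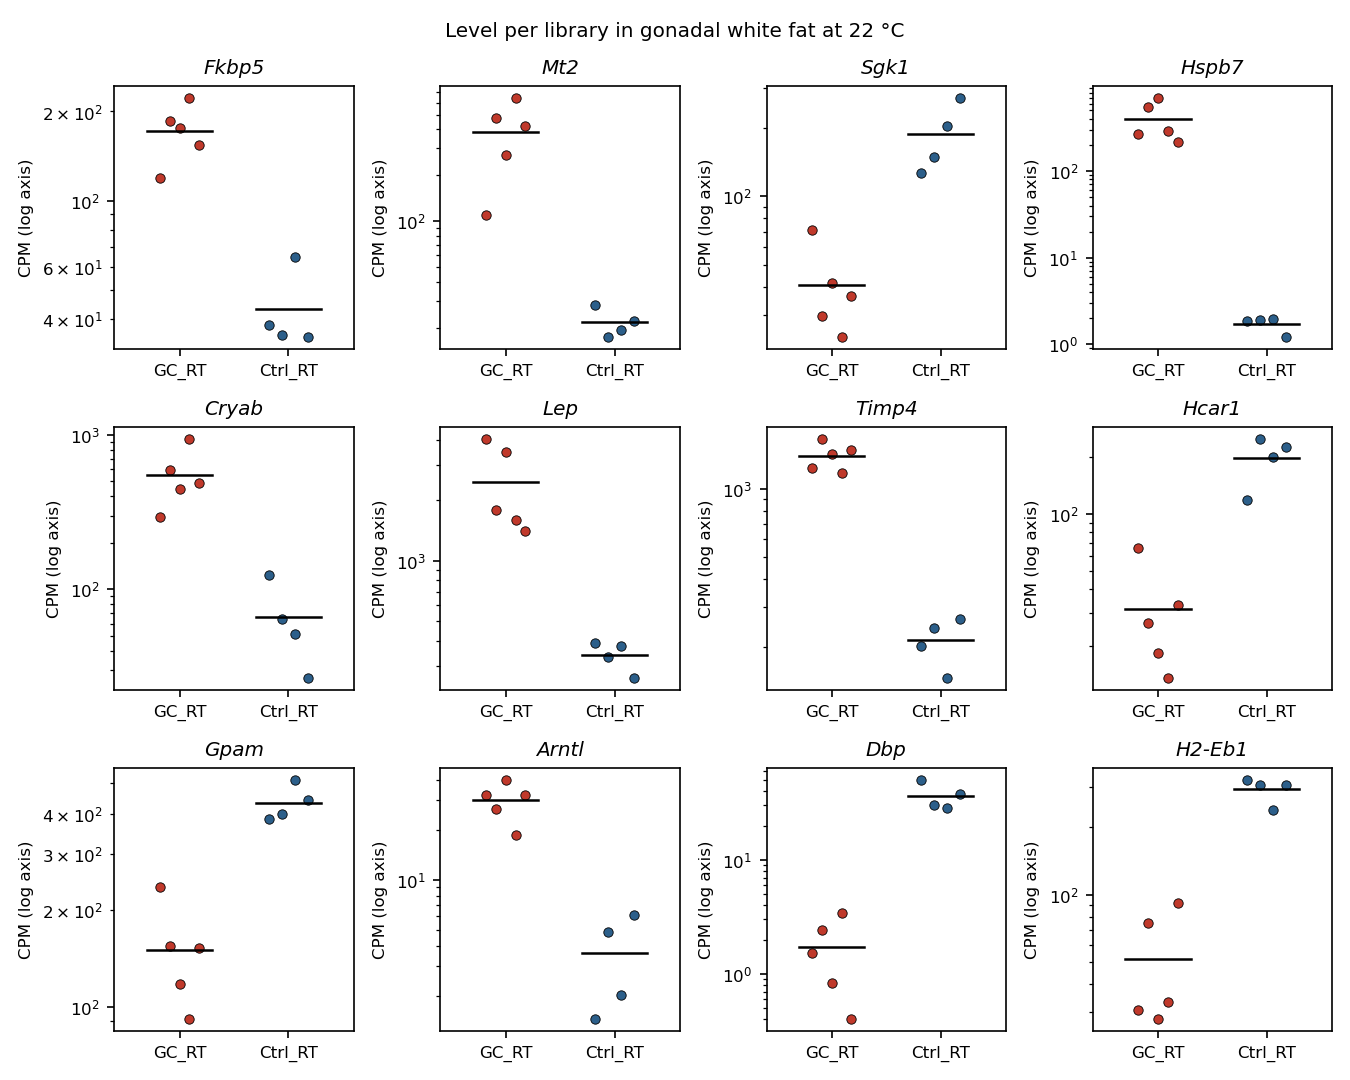
Level of 12 genes in each of the 5 GC_RT (red, left) and 4 Ctrl_RT (blue, right) goWAT libraries, in CPM on a log axis, with a bar at the mean of each group. The 12 genes were picked with their results known, and in none of them do the groups overlap. Fkbp5, Mt2, Hspb7, Cryab, Lep, Timp4 and Arntl are higher in GC_RT, and Sgk1, Hcar1, Gpam, Dbp and H2-Eb1 are lower.

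Hormones and other secreted products of fat moved in both directions. Of 20 adipokine genes 3 rose and 3 fell, with a median of 0.44. Leptin (Lep), the satiety hormone made by adipocytes, had 4035, 1794, 3460.4, 1590.0 and 1399.5 CPM in GC_RT and 389, 333, 379 and 261 CPM in Ctrl_RT. Each GC_RT library was several times above each Ctrl_RT library, and the rise was 2.85 ± 0.39 (edgeR adjusted p = 0.000159). Sfrp5, a secreted Wnt inhibitor, had 103, 116, 103, 13.2 and 43.0 CPM in GC_RT and 7.14, 2.66, 3.65 and 2.77 CPM in Ctrl_RT, with GC_RT replicate 4 the lowest of its group, and rose by 4.22 ± 0.85 (edgeR adjusted p = 0.00636). Adiponectin (Adipoq) overlapped between the groups and was not called (0.79 ± 0.33, edgeR adjusted p = 0.156). Apln, the peptide apelin (-1.77 ± 0.35), Nrg4, an adipokine of the neuregulin family (-1.69 ± 0.36), and the chemokine Cxcl12 (-1.70 ± 0.30) fell, with edgeR adjusted p-values of 0.00351, 0.00619 and 0.00158 and no overlap in any of the 3. Nrg4 stood at 68.3 CPM in GC_RT replicate 4, against 22.0 to 28.6 CPM in the other GC_RT libraries and 95.5 to 137 CPM in Ctrl_RT.

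Acute phase proteins and complement, also secreted, gave 3 rises and 1 fall among 25 tested genes, with a median of 0.21, and 7 in all were called without GC_RT replicate 1. Haptoglobin (Hp), which binds free haemoglobin, had 28917, 73539.8, 15984, 10498 and 7577 CPM in GC_RT and 2159, 2516, 3176 and 3766 CPM in Ctrl_RT. It did not overlap between the groups and rose by 3.23 ± 0.54 (edgeR adjusted p = 0.00109). Serpina3n, a protease inhibitor, had 657, 1425, 679, 1517 and 520.3 CPM in GC_RT and 190.0, 153, 169 and 144 CPM in Ctrl_RT and rose by 2.55 ± 0.37 (edgeR adjusted p = 0.000277). Complement component C3 was lower in every GC_RT library than in any Ctrl_RT library (-1.76 ± 0.34, edgeR adjusted p = 0.00351). Among receptors for peptide hormones, Npr3, which clears natriuretic peptides, had 459, 1496, 538, 731 and 469 CPM in GC_RT and 152, 78.6, 50.6 and 65.9 CPM in Ctrl_RT and rose by 3.09 ± 0.41 (edgeR adjusted p = 0.000106). It was the 1 gene called of 9 angiotensin and natriuretic peptide genes, and 2 were called without GC_RT replicate 1. Adcyap1r1, the receptor of the neuropeptide PACAP, rose by 3.07 ± 0.39 (edgeR adjusted p = 6.42e-05), with no overlap.

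The called genes of triglyceride synthesis and storage were all lower in GC_RT. Of 27 tested genes of triglyceride synthesis and fatty acid uptake 0 rose, 8 fell and 19 were not called, with a median of -0.25 and 10 positive fold changes of up to 1.34, and 6 to 9 were called without any 1 of the 9 libraries or either pair. Gpam, which adds the first acyl chain to glycerol 3-phosphate, had 237, 155, 118, 91.5 and 152 CPM in GC_RT and 385, 398, 509.9 and 441 CPM in Ctrl_RT. Every GC_RT library was below every Ctrl_RT library, a difference of -1.52 ± 0.28 (edgeR adjusted p = 0.00203). Gpat3, an isoenzyme of the same step (-1.61 ± 0.29), Acsl1, which activates fatty acids with coenzyme A (-1.62 ± 0.33), Aqp7, the glycerol channel of adipocytes (-1.22 ± 0.28), and Dgat1, one of the enzymes of the last step (-0.98 ± 0.21), fell without overlap, with edgeR adjusted p-values of 0.00193, 0.00416, 0.0104 and 0.00694. GC_RT replicate 1 was the highest of its group for Gpam, Acsl1 and Aqp7.

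In the 26 tested genes of fatty acid and cholesterol synthesis 0 rose and 3 fell, with a median of -0.44. The count was 1 without Ctrl_RT replicate 3, Ctrl_RT replicate 4 or GC_RT replicate 2, and 5 without GC_RT replicate 1. Srebf1, the transcription factor of lipogenic genes, had 255, 176, 139.5, 85.7 and 97.8 CPM in GC_RT and 327, 335, 451 and 532 CPM in Ctrl_RT and fell by 1.45 ± 0.30 (edgeR adjusted p = 0.00495). Fasn, fatty acid synthase, lay lower in all 5 GC_RT libraries, at 1779 to 7959 CPM in GC_RT against 8264 to 11473 CPM in Ctrl_RT, with a difference of -1.28 ± 0.53 that missed the threshold (edgeR adjusted p = 0.149). Without GC_RT replicate 1 Fasn was called (adjusted p = 0.0466). The citrate carrier Slc25a1 changed by -2.07 ± 0.54 (edgeR adjusted p = 0.0265), and its call held in 3 of the 9 fits that leave out 1 library, with adjusted p-values up to 0.081. It was lost without Ctrl_RT replicates 1, 3 or 4, and without GC_RT replicates 2, 3 or 4, and without replicates 2 and 4 together (adjusted p = 0.155). Bcat2, which starts the breakdown of branched-chain amino acids, fell by 1.10 ± 0.24 (edgeR adjusted p = 0.00683). In that pathway 0 of 21 genes rose and 3 fell, with a median of -0.47, and 1 was called without Ctrl_RT replicate 2 or without Ctrl_RT replicate 4.

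Among genes of lipolysis and lipid droplets the lactate receptor Hcar1, its relative Hcar2 and Plin1 fell. Adrb3, the beta-3 receptor through which catecholamines stimulate lipolysis in adipocytes, changed by -1.50 ± 0.39 (edgeR adjusted p = 0.0241), a call lost without Ctrl_RT replicate 4 (adjusted p = 0.112) or GC_RT replicate 2 (adjusted p = 0.0559), and without GC_RT replicates 2 and 4 together (adjusted p = 0.129). Hcar1, the lactate receptor that restrains lipolysis, had 66.4, 26.6, 18.3, 13.6 and 33.0 CPM in GC_RT and 118, 249, 199.6 and 224 CPM in Ctrl_RT, and Hcar2, which binds niacin and 3-hydroxybutyrate and also restrains lipolysis, had 19.4, 8.78, 7.01, 3.42 and 17.2 CPM in GC_RT and 44.9, 42.9, 64.0 and 54.4 CPM in Ctrl_RT. Neither overlapped between the groups, and they fell by 2.65 ± 0.43 and 2.20 ± 0.45, with edgeR adjusted p-values of 0.000822 and 0.00489. Plin1, the perilipin that coats the droplet of adipocytes, had 491, 421, 261, 468 and 262 CPM in GC_RT and 805, 750.1, 964 and 1301 CPM in Ctrl_RT and fell by 1.33 ± 0.24 (edgeR adjusted p = 0.00193). G0s2, whose protein blocks the lipase ATGL, rose by 1.35 ± 0.34 (edgeR adjusted p = 0.0199), which was lost without Ctrl_RT replicate 1 (adjusted p = 0.0729), Ctrl_RT replicate 4 (adjusted p = 0.0931) or GC_RT replicate 2 (adjusted p = 0.0555), and without GC_RT replicates 2 and 4 together (adjusted p = 0.0932). Of 28 tested genes of lipolysis and lipid droplets 2 rose and 6 fell, with a median of 0.04, and 5 in all were called without Ctrl_RT replicate 4 or GC_RT replicate 2.

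Most calls among genes of the matrix and the cytoskeleton were rises. Of 37 tested genes of collagens and matrix assembly 7 rose and 0 fell, with a median of 0.53, and 4 were called without Ctrl_RT replicate 4. Lox, which cross-links collagen and elastin, had 215, 123, 209.5, 110.1 and 89.0 CPM in GC_RT and 38.2, 27.5, 49.5 and 40.3 CPM in Ctrl_RT. No GC_RT library fell into the range of Ctrl_RT, and the rise was 1.94 ± 0.33 (edgeR adjusted p = 0.00109). Sparc, a collagen-binding matricellular protein, rose by 1.93 ± 0.32, the basement membrane collagen Col18a1 by 1.50 ± 0.24 and nidogen 1 (Nid1), another basement membrane protein, by 1.15 ± 0.25, with edgeR adjusted p-values of 0.00115, 0.000704 and 0.007. Nid1 was not called without GC_RT replicates 2 and 4 together (adjusted p = 0.0535). Among matrix proteases and their inhibitors Timp4 and Adamts5 rose, and most members were not called. Timp4, an inhibitor of metalloproteinases, had 1230.3, 1656, 1428, 1169 and 1485 CPM in GC_RT and 202, 244, 146 and 266 CPM in Ctrl_RT and rose by 2.70 ± 0.30 (edgeR adjusted p = 1.38e-05). Adamts5, a protease that cuts aggrecan and versican, had 697, 602, 673, 676 and 579.9 CPM in GC_RT and 114, 106, 101 and 105 CPM in Ctrl_RT and rose by 2.60 ± 0.27 (edgeR adjusted p = 6.38e-06). Of 23 matrix proteases and inhibitors 3 rose and 1 fell, with a median of 0.33, and 2 were called without Ctrl_RT replicate 2, 3 or 4 or GC_RT replicate 2.

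The 9 small leucine-rich proteoglycans, which bind collagen fibrils, gave 2 rises and 1 fall, with a median of 0.34. Prelp had 791, 852, 542, 1424 and 849 CPM in GC_RT and 227, 144, 128 and 114 CPM in Ctrl_RT and rose by 2.54 ± 0.34 (edgeR adjusted p = 0.000135), while lumican (Lum) had 51.4, 45.5, 33.3, 69.9 and 36.1 CPM in GC_RT and 94.5, 103, 148 and 125 CPM in Ctrl_RT and fell by 1.31 ± 0.31 (edgeR adjusted p = 0.0145). Both genes kept the groups apart. Thrombospondin 1 (Thbs1), which can activate latent TGF-beta, had 166, 69.4, 211, 165 and 659 CPM in GC_RT and 13.9, 12.8, 17.9 and 52.3 CPM in Ctrl_RT, with GC_RT replicate 5 highest, and rose by 3.39 ± 0.66 (edgeR adjusted p = 0.00421). The growth factor Tgfb3 rose by 1.40 ± 0.25 (edgeR adjusted p = 0.00162). In the list of TGF-beta and matricellular genes 4 of 30 rose and 0 fell, with a median of 0.64, and 2 were called without Ctrl_RT replicate 2 or without Ctrl_RT replicate 4.

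Among 39 genes of the actin cytoskeleton, with tubulins, annexins, S100 proteins and galectins in the same list, 13 rose and 0 fell. Their median was 0.80, 35 of 39 fold changes were positive, and 9 to 16 were called without any 1 of the 9 libraries or either pair. Vimentin (Vim), the intermediate filament of mesenchymal cells, had 1438, 1939.9, 1819.9, 2501 and 1760.4 CPM in GC_RT and 458, 446, 397 and 351 CPM in Ctrl_RT and rose by 2.20 ± 0.28 (edgeR adjusted p = 7.69e-05). Annexin A1 (Anxa1), known as an anti-inflammatory mediator of glucocorticoids, had 636, 924, 1004, 1046 and 1291 CPM in GC_RT and 249.6, 157, 143 and 96.9 CPM in Ctrl_RT and rose by 2.60 ± 0.41 (edgeR adjusted p = 0.000732). Galectin 3 (Lgals3) rose by 2.38 ± 0.37 and S100a10, the partner of annexin A2, by 1.66 ± 0.30, with edgeR adjusted p-values of 0.000656 and 0.00181. All 4 genes were free of overlap. Most of the risen members are neither actin nor myosin genes, and Actb (0.28) and Acta2 (1.49) were not called. Summed markers of progenitors and fibroblasts, which also make these proteins, ran from 6222 to 34712 CPM in GC_RT and from 9764 to 22772 CPM in Ctrl_RT, and 1 of 16 was called.

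**Figure D2:**
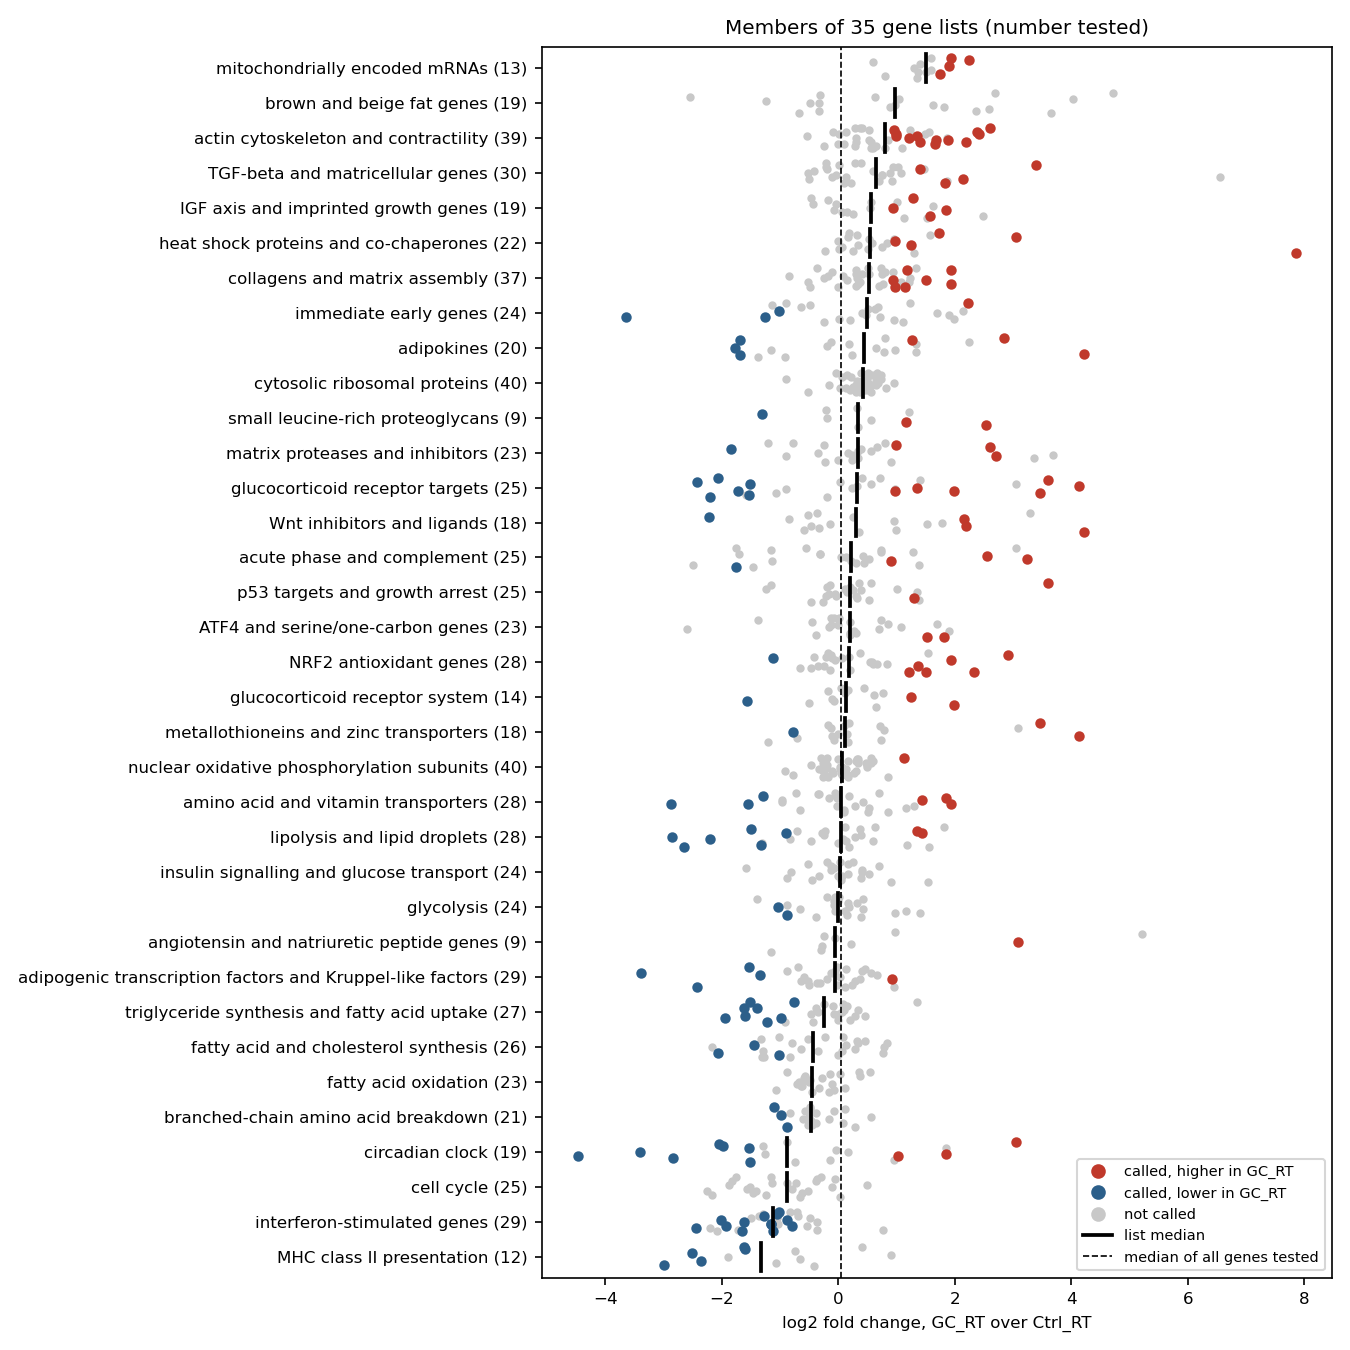
Log2 fold change, GC_RT over Ctrl_RT, of every tested member of 35 gene lists, ordered by list median, with the number tested in brackets. Red points were called higher and blue points lower in GC_RT, grey points were not called, black ticks are list medians and the dashed line is the median of all genes, 0.05. The called members of the interferon and MHC class II lists are all blue and those of the actin, collagen and heat shock lists all red, beside grey members in each.

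Clock genes changed in both directions. Of 19 tested clock genes 3 rose and 7 fell, 52.6%, with a median of -0.88, and 8 to 12 were called without any 1 of the 9 libraries or either pair. The core clock is a loop in which Arntl (BMAL1) and its partner switch on the Per, Cry and Rev-erb genes, whose proteins switch Arntl activity or transcription off. Arntl had 32.3, 26.7, 39.8, 18.7 and 32.4 CPM in GC_RT and 1.45, 4.82, 2.01 and 6.12 CPM in Ctrl_RT. Each GC_RT library was above each Ctrl_RT library, and the rise was 3.06 ± 0.41 (edgeR adjusted p = 0.000138). Dbp, a transcription factor driven directly by the clock, had 1.53, 2.42, 0.838, 3.42 and 0.401 CPM in GC_RT and 50.2, 30.2, 28.3 and 37.5 CPM in Ctrl_RT, and fell by 4.47 ± 0.45 (edgeR adjusted p = 6.38e-06). The Rev-erb genes Nr1d1 and Nr1d2 repress Arntl. Nr1d1 had 32.3, 51.0, 38.3, 36.0 and 31.8 CPM in GC_RT and 147, 218, 119 and 141 CPM in Ctrl_RT. Nr1d2 had 9.07, 7.25, 11.8, 19.01 and 8.60 CPM in GC_RT and 68.0, 64.4, 105 and 82.5 CPM in Ctrl_RT. They fell by 2.05 ± 0.21 and 2.84 ± 0.31, with edgeR adjusted p-values of 6.38e-06 and 1.38e-05. Ciart, a further clock repressor, fell by 3.41 ± 0.52 (edgeR adjusted p = 0.000451). None of these 5 genes overlapped between the groups. The labels give no time of day for tissue collection, so a shift in the time of collection and a shift of the clock cannot be told apart.

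Upstream sequences of Ciart and Per1 are shown because both genes fell and hold the E-box CACGTG, the binding sequence of the BMAL1 complex. The E-box occurred in 1978 of 32851 promoters (6.02%). It occurred in 5 of the 16 tested clock genes with a RefSeq promoter, and in 3 of the 10 called ones, Per1, Tef and Ciart. A gene counts here if any of its starts held the E-box, while the 6.02% is over single promoters. Ciart (chr3:95882229-95882478, minus strand) held 3, beginning 116, 58 and 44 bases before the start. Of 2 RefSeq starts of Per1, the one with the window chr11:69098699-69098948 (plus strand) held 1, beginning 166 bases before it. Capitals mark E-boxes.
Ciart: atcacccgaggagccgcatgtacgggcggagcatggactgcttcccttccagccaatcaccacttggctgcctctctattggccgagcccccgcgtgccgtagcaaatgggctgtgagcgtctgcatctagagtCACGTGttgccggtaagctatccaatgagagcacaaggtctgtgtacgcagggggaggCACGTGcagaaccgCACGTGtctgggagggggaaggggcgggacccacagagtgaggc
Per1: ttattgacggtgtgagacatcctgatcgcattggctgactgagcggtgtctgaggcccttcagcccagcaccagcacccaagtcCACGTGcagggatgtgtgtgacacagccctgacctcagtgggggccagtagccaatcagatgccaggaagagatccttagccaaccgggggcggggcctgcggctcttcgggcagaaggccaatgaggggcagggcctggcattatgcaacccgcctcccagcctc

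The called genes of the interferon and MHC class II lists were all lower in GC_RT. Of 29 interferon-stimulated genes 0 rose and 13 fell, 44.8%, with a median of -1.13, and 28 of the 29 fold changes were negative. Without any 1 of the 9 libraries or either pair, 9 to 16 were called. Irf7, the transcription factor that amplifies interferon responses, had 14.5, 19.2, 9.34, 8.06 and 7.73 CPM in GC_RT and 24.5, 38.2, 40.2 and 43.5 CPM in Ctrl_RT. All GC_RT libraries lay below the Ctrl_RT range, and Irf7 fell by 1.65 ± 0.27 (edgeR adjusted p = 0.000894). The GTPase Irgm1 (-1.15 ± 0.22) and Ifi44 (-2.45 ± 0.50) fell without overlap, with edgeR adjusted p-values of 0.00291 and 0.00504. Trim14, an adaptor of antiviral signalling, had 6.46, 4.20, 3.89, 1.98 and 3.74 CPM in GC_RT and 15.8, 14.6, 31.7 and 61.0 CPM in Ctrl_RT and fell by 2.93 ± 0.43 (edgeR adjusted p = 0.000355).

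The promoter of Irgm1 (chr11:48871421-48871670, minus strand) is shown as an interferon gene with 2 overlapping matches, in capitals, to a pair of GAAA set 2 bases apart. They begin 30 and 24 bases before the start. That pair, searched on both strands, occurred in 978 of 32851 promoters (2.98%). It occurred in 13 of the 21 tested interferon-stimulated genes with a promoter in the RefSeq table, and in 4 of the 9 of these that fell. A gene counts here if any of its starts held the pair, while the 2.98% is over single promoters.
Irgm1: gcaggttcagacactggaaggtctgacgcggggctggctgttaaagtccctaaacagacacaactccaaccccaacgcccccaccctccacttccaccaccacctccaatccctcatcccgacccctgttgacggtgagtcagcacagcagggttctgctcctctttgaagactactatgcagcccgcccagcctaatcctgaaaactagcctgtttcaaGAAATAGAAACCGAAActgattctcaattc

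MHC class II molecules present antigen on macrophages, dendritic cells and B cells, and 5 of 12 genes of this pathway fell while 0 rose, with a median of -1.33. The count was 3 without GC_RT replicates 2 and 4 together. H2-Eb1 had 30.8, 74.5, 28.0, 33.4 and 91.6 CPM in GC_RT and 323, 306, 237 and 307 CPM in Ctrl_RT. Every GC_RT library was well below every Ctrl_RT library, and the gene fell by 2.51 ± 0.40 (edgeR adjusted p = 0.000732). H2-Ab1 fell by 2.36 ± 0.38, H2-Aa by 1.63 ± 0.39 and the invariant chain Cd74 by 1.596 ± 0.33, with edgeR adjusted p-values of 0.000833, 0.0152 and 0.00564. The call of H2-Aa was lost without GC_RT replicates 2 and 4 together (adjusted p = 0.0846). GC_RT replicates 2 and 5 were the highest of their group for all 4 genes. H2-Q6, a class I gene with near-identical copies among which reads can be split, fell by 2.45 ± 0.47 (edgeR adjusted p = 0.00319).

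Markers of the cells that carry these genes gave no uniform picture. Of 21 macrophage markers 1 rose and 0 fell (4.76% called), with a median of 0.43 and 17 of 21 fold changes positive. Their mean log2 CPM ran from 4.69 to 5.77 in GC_RT and from 4.36 to 4.81 in Ctrl_RT. Their summed level ran from 9929 to 19218 CPM in GC_RT and from 9700 to 14192 CPM in Ctrl_RT. Lpl is in this list and in the white adipocyte list, so the sum is not of macrophages alone. The risen one, Lyve1, a hyaluronan receptor of lymphatic vessels and of a resident macrophage population, had 45.7, 49.0, 49.5, 89.6 and 88.3 CPM in GC_RT and 14.2, 6.42, 12.2 and 4.28 CPM in Ctrl_RT and rose by 2.80 ± 0.48 (edgeR adjusted p = 0.00139). Of 19 lymphocyte markers 0 rose and 3 fell, with a median of -1.13, 1 of them called without Ctrl_RT replicate 3 or without GC_RT replicate 3. Cd3g, a chain of the T cell receptor complex, had 0.624, 0.127, 0.381, 0.214 and 0.232 CPM in GC_RT and 1.66, 1.18, 2.43 and 1.36 CPM in Ctrl_RT, all of them low, and fell by 2.35 ± 0.48 (edgeR adjusted p = 0.00459). The mean log2 CPM of the lymphocyte list ran from -1.11 to -0.39 in GC_RT and from -0.09 to 0.74 in Ctrl_RT, without overlap. The summed level of the lymphocyte list went the other way, 382 to 964 CPM in GC_RT and 104 to 267 CPM in Ctrl_RT. Most of that sum in every library was Ighm, the heavy chain of IgM, singled out after its values were seen, at 370.5 to 957 CPM in GC_RT and 69.3 to 245 CPM in Ctrl_RT (edgeR adjusted p = 0.117), while the B cell gene Ms4a1 was at 0.0567 to 1.04 CPM in GC_RT. Endothelial markers gave 0 rises and 2 falls of 16, with a median of -0.64, a summed level of 681 to 1457 CPM in GC_RT and 1383 to 1997 CPM in Ctrl_RT. The endothelial count was 0 without Ctrl_RT replicate 2, 3 or 4 or GC_RT replicate 2 or 3, and 6 without GC_RT replicate 1. Whether cell numbers had a part in the lower immune genes was not tested.

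Of the other marker lists, white adipocyte genes gave 1 rise, Lep, and 4 falls, with Plin1, Adrb3 and Aqp7 among them, in 17 genes, and 3 in all were called without Ctrl_RT replicate 4. Skeletal muscle gave 2 rises among 10, Mylpf and Tnni2, with 0 called without any 1 Ctrl_RT library or GC_RT replicate 2. Pericytes and smooth muscle gave 1 fall among 11, lost without any 1 Ctrl_RT library or GC_RT replicate 1, 3 or 4. Progenitors and fibroblasts gave 1 fall among 16 (6.25%), Lum. None was called among 10 brown adipocyte, 10 neutrophil and mast cell, 12 mesothelial, 6 epididymal, 8 erythrocyte and 10 Schwann cell genes. Erythrocyte markers summed to 3406 to 20548 CPM in GC_RT and 2576 to 12975 CPM in Ctrl_RT, mesothelial markers to 57.1 to 193 CPM in GC_RT and 27.3 to 110.2 CPM in Ctrl_RT, and Schwann cell and nerve markers to 220.2 to 464 CPM in GC_RT and 340.1 to 588 CPM in Ctrl_RT.

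**Figure D3:**
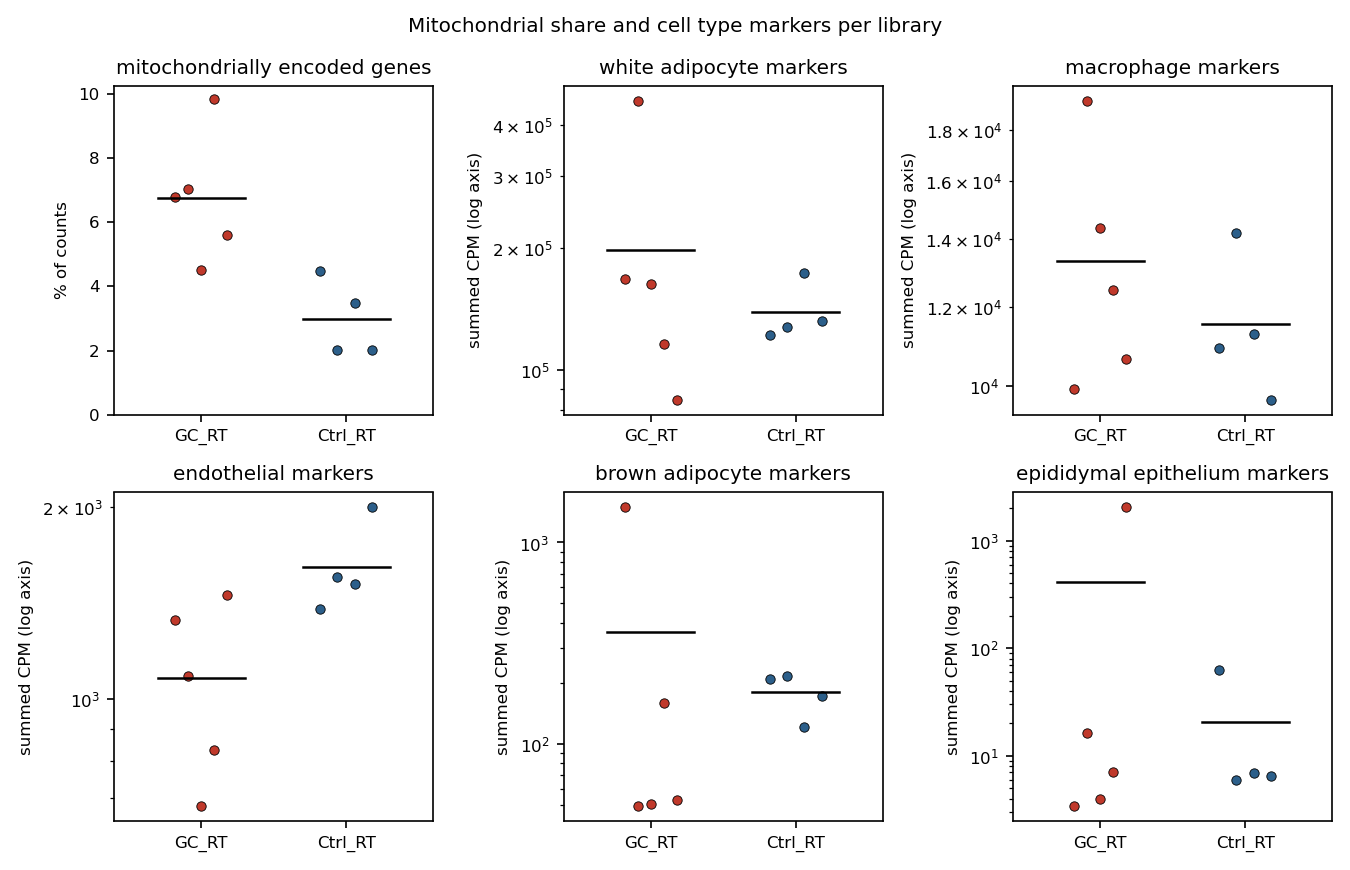
Share of counts from mitochondrially encoded genes (percent, axis from 0) and summed CPM of 5 marker lists (log axes) in each GC_RT (red, left) and Ctrl_RT (blue, right) library, with bars at group means. GC_RT replicate 2 stands alone for white adipocyte markers at 457099 CPM, replicate 1 for brown adipocyte markers at 1493 CPM and replicate 5 for epididymal markers at 2036 CPM.

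Mitochondrially encoded genes took 6.81%, 7.04%, 4.53%, 9.87% and 5.60% of counts in the GC_RT libraries, against 4.48%, 2.02%, 3.49% and 2.00% in the Ctrl_RT libraries. The groups touch without overlap, with means of 6.77% ± 2.00 (SD, n = 5) in GC_RT and 3.00% ± 1.21 (SD, n = 4) in Ctrl_RT, a difference of 3.77 percentage points. An exact two-sided permutation test gave p = 0.0159, the smallest that 5 against 4 libraries can give. All 13 mitochondrial mRNAs had a positive fold change, with a median of 1.51, and 4 of them rose. The means of these 4 in GC_RT ran from 74.5 CPM for mt-Atp8 to 521 CPM for mt-Co2, a small part of the mitochondrial share. How reads that match more than 1 place were counted is not given, which limits the reading of these genes. The gene mt-Co2, a subunit of cytochrome c oxidase, rose by 2.25 ± 0.44 (edgeR adjusted p = 0.00361). The calls of mt-Co3 (1.74 ± 0.41), mt-Atp6 (1.90 ± 0.46) and mt-Atp8 (1.93 ± 0.48) were lost without Ctrl_RT replicate 2 (adjusted p = 0.0568, 0.059 and 0.0704) or Ctrl_RT replicate 4 (adjusted p = 0.065, 0.0736 and 0.0899), and 9 of the 13 were called without GC_RT replicate 5. The mitochondrial tRNA gene mt-Tq was among the largest rises (3.49 ± 0.78, edgeR adjusted p = 0.0123), which was lost without Ctrl_RT replicate 4 (adjusted p = 0.0558). Without GC_RT replicates 2 and 4 together mt-Co3, mt-Atp6, mt-Atp8 and mt-Tq were not called (adjusted p = 0.147, 0.123, 0.129 and 0.0798). The 40 nuclear subunits of oxidative phosphorylation had a median of 0.07, and 1 rose, with 0 called without any 1 Ctrl_RT library, GC_RT replicate 2 or GC_RT replicate 4, and 4 called without GC_RT replicate 1. GC_RT libraries were also shallower and less alike than Ctrl_RT libraries, as given above, and the part of RNA quality in the mitochondrial share was not tested.

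Most calls among antioxidant genes were rises, and transporters moved both ways. Of 28 genes listed as targets of the oxidant sensor NRF2, 6 rose and 1 fell, with a median of 0.19, and 3 were called without Ctrl_RT replicate 3 or without Ctrl_RT replicate 4. Peroxiredoxin 6 (Prdx6), which reduces lipid peroxides, had 3188, 4611, 7066, 2036 and 1904 CPM in GC_RT and 809, 870.2, 561 and 767 CPM in Ctrl_RT and rose by 2.32 ± 0.37 (edgeR adjusted p = 0.000723). Osgin1 rose by 2.91 ± 0.55 and the glutathione transferase Gsta3 by 1.37 ± 0.28, with edgeR adjusted p-values of 0.00308 and 0.00495. Gsta3 was not called without GC_RT replicates 2 and 4 together (adjusted p = 0.0517). Of 28 transporters of amino acids and vitamins 3 rose and 3 fell, with a median of 0.04. Slc5a6, which carries biotin and pantothenate, had 25.9, 18.6, 18.7, 15.2 and 13.7 CPM in GC_RT and 96.7, 132, 134 and 175 CPM in Ctrl_RT, without overlap, and fell by 2.87 ± 0.26 (edgeR adjusted p = 1.4e-06). The taurine transporter Slc6a6 fell by 1.29 ± 0.26, Slc43a1, a carrier of large neutral amino acids, fell by 1.54 ± 0.33, and Slc7a8, another amino acid exchanger, rose by 1.85 ± 0.33, with edgeR adjusted p-values of 0.00376, 0.00643 and 0.00162. The call of Slc43a1 was lost without GC_RT replicates 2 and 4 (adjusted p = 0.0533).

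Growth and transcription factors were mixed. Of 29 adipogenic transcription factors and Krüppel-like factors 1 rose and 4 fell, with a median of -0.06, and 3 in all were called without GC_RT replicates 2 and 4. Stat5a, which carries growth hormone signals, fell by 1.35 ± 0.27, and Zfp423, a factor of preadipocyte commitment, rose by 0.92 ± 0.20, with edgeR adjusted p-values of 0.00376 and 0.00771, of which Zfp423 lost its call without GC_RT replicates 2 and 4 together (adjusted p = 0.0643). Irf4, an interferon regulatory factor that acts on lipolysis genes in fat, had 7.37, 3.31, 2.40, 0.641 and 1.99 CPM in GC_RT and 13.9, 12.8, 17.0 and 86.7 CPM in Ctrl_RT. Its fall of 3.39 ± 0.79 (edgeR adjusted p = 0.0164) was not called without Ctrl_RT replicate 4, the highest library (adjusted p = 0.0915), or without GC_RT replicates 2 and 4 (adjusted p = 0.0908). The IGF-binding proteins Igfbp3 (1.85 ± 0.36) and Igfbp5 (1.57 ± 0.31) rose, with edgeR adjusted p-values of 0.00362 and 0.00405. In the list of IGF and imprinted growth genes 4 of 19 rose and 0 fell, and 2 were called without Ctrl_RT replicate 1, 2 or 3 or GC_RT replicate 4. Wnt11, a Wnt ligand, and Axin2, a feedback inhibitor of the Wnt pathway, rose by 2.19 ± 0.37 and 2.15 ± 0.46, with edgeR adjusted p-values of 0.00122 and 0.00669, and 1 GC_RT library overlapped Ctrl_RT for Axin2. Axin2 was not called without GC_RT replicates 2 and 4 (adjusted p = 0.0687). Of 18 Wnt genes 3 rose and 1 fell, and 2 in all were called without GC_RT replicates 2 and 4. Fos, part of the AP-1 factor, rose by 2.22 ± 0.38 and the phosphatase Dusp2 fell by 3.65 ± 0.72, with edgeR adjusted p-values of 0.00139 and 0.00359, in a list of 24 immediate early genes with 1 rise and 3 falls. Ddit3, the stress factor CHOP, rose by 1.51 ± 0.33 (edgeR adjusted p = 0.00754) and lost its call without GC_RT replicates 2 and 4 (adjusted p = 0.0602). It was 1 of 2 rises among 23 genes of the ATF4 pathway (8.70%), a share near that of all genes. Of the 2, 1 was called without any 1 Ctrl_RT library or without GC_RT replicate 2 or 3.

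No member was called in 5 of the 35 pathway lists, namely insulin signalling and glucose transport (24 genes tested, median 0.03), fatty acid oxidation (23, median -0.46), cell cycle (25, median -0.88), cytosolic ribosomal proteins (40, median 0.42) and brown and beige fat genes (19, median 0.97). The last median was -0.37 without GC_RT replicate 1, the library with high Ucp1. Fold changes were positive in 13, 5, 2, 36 and 12 members of these 5 lists, in the same order. Without GC_RT replicate 1, 4 genes were called in fatty acid oxidation, 4 in the ribosomal list and 2 in insulin signalling, and the other fits without 1 of the 9 libraries gave 0 or 1 in each of the 5 lists. Glycolysis gave 2 falls among 24 genes (8.33%), 1 of them called without Ctrl_RT replicate 3 or GC_RT replicate 3. The p53 targets gave 2 rises among 25 (8.0%), 1 of them called without Ctrl_RT replicate 1, 3 or 4 or GC_RT replicate 2. Both shares lie near that of all genes. Outside the lists, large rises without overlap were those of Olfml3 (3.82 ± 0.49), a secreted olfactomedin-like protein, Ehd3 (3.58 ± 0.43), which acts in endocytic recycling, Prrg3 (3.36 ± 0.30), Vgll3 (3.11 ± 0.41), a cofactor of TEAD transcription factors, and Cystm1 (3.12 ± 0.66). Large falls were those of Pcsk4 (-2.62 ± 0.39), a proprotein convertase, Net1 (-2.58 ± 0.48), an activator of the GTPase RhoA, and the polarity gene Pard6g (-2.22 ± 0.38). The edgeR adjusted p-values of these 8 ran from 1.4e-06 in Prrg3 to 0.00829 in Cystm1.

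**Figure D4:**
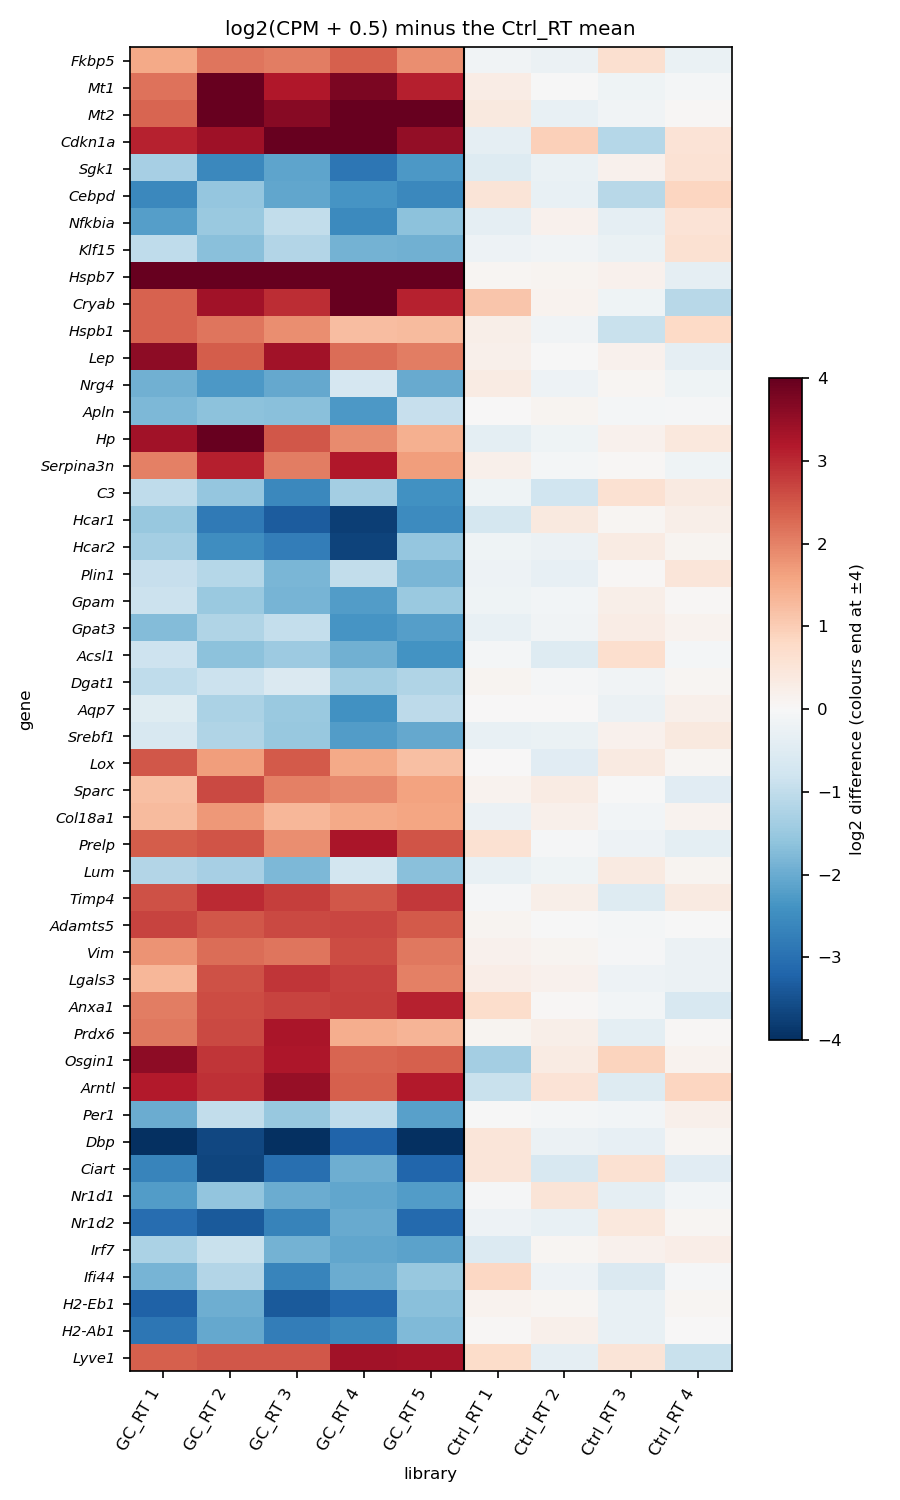
Level of 49 called genes (rows) in the 5 GC_RT and 4 Ctrl_RT libraries (columns), as log2(CPM + 0.5) minus the mean of the Ctrl_RT libraries, red for higher and blue for lower, with colours ending at ±4. Each row keeps 1 colour over the 5 GC_RT libraries, darkest for Hspb7 in red and Dbp in blue, while the Ctrl_RT libraries stay pale.

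The difference between temperatures was tested in the same fit, as the corticosterone effect at 13 °C (5 GC_CT against 5 Ctrl_CT) minus that at 22 °C. It was called in 93 genes, 0.461% of those tested, with 66 positive (0.327%) and 27 negative (0.134%). The count was 35 without Ctrl_RT replicate 4, 49 to 60 without Ctrl_RT replicate 1, Ctrl_CT replicates 1, 4 or 5 or GC_CT replicates 3, 4 or 5, 180 without GC_RT replicate 1 and 149 without GC_CT replicate 2. For Arntl, Dbp and Lep the difference was not called. Their effects at 13 °C were 3.53 ± 0.39, -3.89 ± 0.43 and 1.58 ± 0.34, beside 3.06 ± 0.41, -4.47 ± 0.45 and 2.85 ± 0.39 at 22 °C. The edgeR adjusted p-values of the difference were 0.705, 0.679 and 0.269.

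Several genes that rose at 22 °C differed between temperatures. Prelp changed by -0.31 ± 0.30 at 13 °C, a difference of -2.85 ± 0.44 (edgeR adjusted p = 0.00371). It averaged 892 CPM in GC_RT and 153 CPM in Ctrl_RT, and 254 CPM in GC_CT and 314 CPM in Ctrl_CT. Mt2 differed by -3.28 ± 0.59, Npr3 by -2.74 ± 0.52 and Hspb7 by -3.70 ± 0.71, with edgeR adjusted p-values of 0.0105, 0.0134 and 0.0167. For these 3 genes the mean of Ctrl_CT lay above that of Ctrl_RT, at 52.8 against 21.8 CPM for Mt2, 203 against 86.8 CPM for Npr3 and 9.36 against 1.74 CPM for Hspb7. The calls of Npr3 and Hspb7 were lost without Ctrl_RT replicate 4 (adjusted p = 0.0622 and 0.0793). Without GC_RT replicates 2 and 4 together, the difference was not called for Mt2, Npr3 or Hspb7 (adjusted p = 0.0594, 0.0513 and 0.0662). Fkbp5, Cdkn1a, Mt1, Prrg3 and Lgals3, which had risen at 22 °C, were called for the difference too, each with a negative difference. So were Klf9, not called at 22 °C, with a negative difference, and Nr1d1, which had fallen, with a positive difference. For all of them the edgeR adjusted p-values ran from 0.0247 to 0.0481. But each call was kept in only 4 to 12 of the 19 fits that leave out 1 library. Fkbp5 averaged 171 CPM in GC_RT and 43.3 CPM in Ctrl_RT, and 108 CPM in GC_CT and 127 CPM in Ctrl_CT.

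The next 5 genes had the smallest p for the difference among named genes that averaged 3 log2 CPM or more over the 9 libraries. They fell at 22 °C and had positive changes at 13 °C. Rnf187, a ubiquitin ligase gene, changed by -1.97 ± 0.24 at 22 °C and by 0.97 ± 0.23 at 13 °C, a difference of 2.94 ± 0.33 (edgeR adjusted p = 0.000161). Lsm4, an RNA-binding protein of the splicing machinery, differed by 2.51 ± 0.29, the palmitoyltransferase gene Zdhhc7 by 2.43 ± 0.34, Inafm1 by 2.60 ± 0.36 and Kctd13, an adaptor of a ubiquitin ligase, by 2.87 ± 0.42, with edgeR adjusted p-values of 0.000161, 0.00177, 0.00177 and 0.00261. In all 5 genes Ctrl_RT had the highest mean of the 4 groups, for example 107 CPM in GC_RT and 418 CPM in Ctrl_RT, beside 168 CPM in GC_CT and 85.3 CPM in Ctrl_CT, for Rnf187. Trim14 (3.68 ± 0.58) and Plin1 (2.01 ± 0.33) had the same order of signs, with edgeR adjusted p-values of 0.00391 and 0.00521. These 7 genes and Prelp kept the call for the difference in all 29 alternatives run for it. The immediate early gene Ier2 differed by 2.27 ± 0.43 (edgeR adjusted p = 0.0138). That call and its fall at 22 °C (-1.26 ± 0.31, edgeR adjusted p = 0.0184) were lost without Ctrl_RT replicate 4, with adjusted p = 0.0622 and 0.119.

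**Figure D5:**
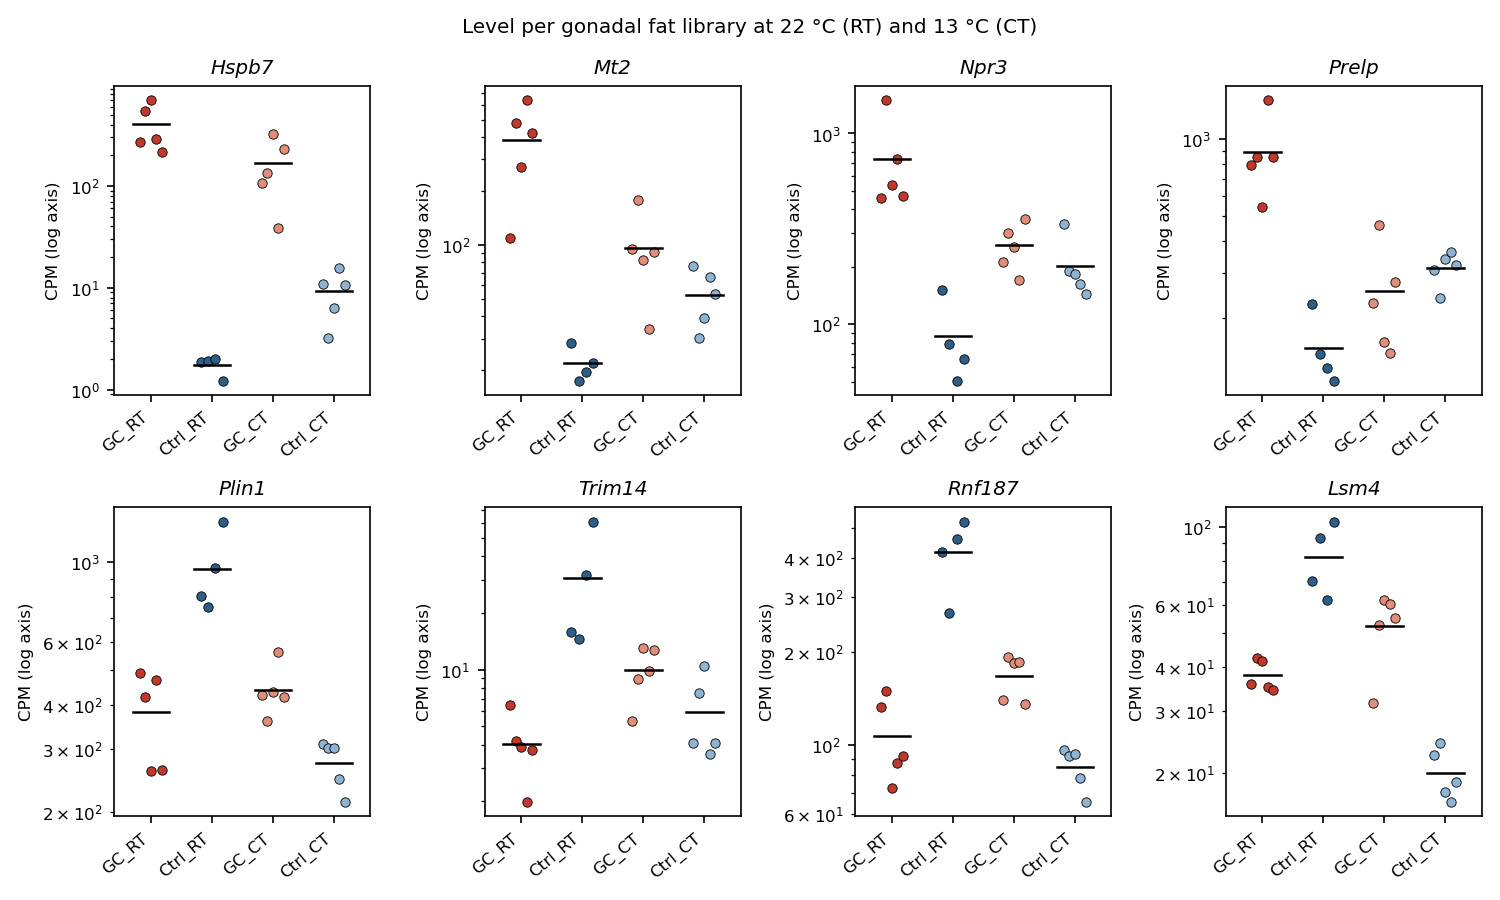
Level of 8 genes, in CPM on a log axis, in each goWAT library of GC_RT (5) and Ctrl_RT (4) at 22 °C and of GC_CT (5) and Ctrl_CT (5) at 13 °C, with bars at group means. By group mean, Hspb7, Mt2, Npr3 and Prelp are highest in GC_RT and lowest in Ctrl_RT, and Plin1, Trim14, Rnf187 and Lsm4 are highest in Ctrl_RT.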

How the data were processed

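RNA from laser-captured areas of goWAT cryosections was sequenced with SMART-Seq2, a protocol that does not mark strand, so overlapping and antisense genes cannot be told apart. The deposited table holds raw read counts per Ensembl gene, 1 column per library and not pooled, and all 19 columns were used. The submitters' processing notes name FastQC, GSNAP, featureCounts 1.6.3 and the build mm10, with no roles or order. The sources used here give neither the strand setting nor how multimapping reads were treated. Of 31933 gene IDs, 31894 had a GENCODE M21 name.

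Counts of the 19 libraries were fitted with 1 mean per group in edgeR 4.0.16 (R 4.3.3), with TMM scaling, filterByExpr (10 counts in 4 libraries, 15 in all) and the robust quasi-likelihood test. The effect at 22 °C was GC_RT minus Ctrl_RT. p-values were adjusted by Benjamini-Hochberg over 20175 genes. The common biological coefficient of variation was 49.99%, and totals ran from 12310822 to 38273929 counts in GC_RT and from 31977093 to 47452558 in Ctrl_RT. Printed CPM are counts per 1000000 of the TMM-scaled library size, and CPM do not correct for gene length. The fit was tested on simulated counts, with 100 genes changed 4-fold and 100 changed 2-fold in GC_RT. Genes of low level were left out of the changed set, and each gene had the same spread in every group. The recovered shares therefore do not cover genes of low level or a wider spread between GC_RT libraries. At 22 °C it recovered 89% of the 4-fold and 25% of the 2-fold changes. For the difference between temperatures it recovered 66% and 6%. A gene that was not called may therefore still have changed. The alternatives were DESeq2 1.42.0, limma 3.58.1 with library weights, other scalings and filters, the 9 libraries alone, a replicate block and libraries left out. The share of mitochondrially encoded counts was compared by an exact permutation test (scipy 1.17.1).

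Gene lists, the members of this comparison and the naming rule were chosen with earlier results of these data known. The rule took the 15 largest rises and 15 largest falls among called genes that averaged 3 log2 CPM or more, had a gene name and did not overlap. It also took up to 4 called genes per list and direction, uncalled list members and a fixed set. For the difference between temperatures it took the 5 smallest p among called genes with the same level and a gene name. Fewer are named than the rule allows. Promoters are 250 bases upstream of RefSeq starts (GRCm38.p6), matched by symbol.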

Additional observations from a re-analysis of the deposited data

Results flagged for a closer look

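In groups of 4 or 5 libraries, 10 of 222 tests for a library far from the others (Dixon's test on log2 CPM) passed, and chance passes about 1 in 20. In Ctrl_RT, replicate 4 was alone at the top for Klf15 (262.5 CPM, the others 144 to 156) and Irf4 (86.68 CPM, the others 12.8 to 17.0), and alone at the bottom for Hspb7 (1.215 CPM, the others 1.85 to 1.98). In the same group replicate 3 was highest for Fkbp5 (64.84 CPM, the others 34.7 to 38.2), replicate 1 was lowest for Fos (2.775 CPM, the others 4.08 to 4.41) and highest for Crisp1 (48.01 CPM, the others 3.49 to 4.71). In GC_RT, replicate 4 was highest for Nrg4 (68.29 CPM, the others 22.0 to 28.6) and lowest for Stat5a (11.91 CPM, the others 26.3 to 36.0), replicate 2 was lowest for Dusp2 (0 CPM, the others 0.152 to 0.296) and replicate 5 highest for Crisp1 (1288 CPM, the others 1.81 to 10.0). Apart from Irf4 and Crisp1, which is an uncalled gene, the calls of these genes held without that library.

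The corticosterone effect differed between temperatures in 19 named genes by the edgeR test of the difference itself, given here as the log2 effect at 13 °C minus that at 22 °C. It was negative for Hspb7 (-3.700), Mt2 (-3.277), Prelp (-2.849), Npr3 (-2.739), Mt1 (-2.447), Cdkn1a (-2.406), Fkbp5 (-2.214), Lgals3 (-2.148), Prrg3 (-1.707) and Klf9 (-1.509). Of these, all but Klf9 had risen at 22 °C. It was positive for Trim14 (3.678), Rnf187 (2.944), Kctd13 (2.870), Inafm1 (2.597), Lsm4 (2.505), Zdhhc7 (2.433), Ier2 (2.274), Plin1 (2.007) and Nr1d1 (1.283), all of which had fallen at 22 °C.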

How the results depend on the processing

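Against 1206 genes called, DESeq2 called 2212, the 9 libraries fitted alone 655, the fit without GC_RT replicates 2 and 4 gave 709 and that without 1 and 5 gave 1994. Leaving out 1 library gave 567 to 1973. For the difference between temperatures, against 93, DESeq2 called 417, limma 191, the fit without GC_RT replicates 2 and 4 gave 50, that without 1 and 5 gave 168, and leaving out 1 library gave 35 to 180. The mitochondrial share differed by 2.65 points without GC_RT replicates 2 and 4 and by 4.15 points without 1 and 5, each with an exact permutation p of 0.0571, the smallest that 35 splits can give, and by 3.00 to 4.33 points without 1 library. With library numbers as a replicate block 843 genes were called, and 35 for the difference. The labels do not say whether the numbers pair samples. Same-numbered GC_RT and Ctrl_RT libraries had correlations of deviations of -0.16, -0.02, -0.08 and -0.10. Differently numbered pairs were not measured, so these values cannot decide whether a number marks a shared animal, batch or day. The sign reversed in 3 uncalled genes. Nr3c1 was -0.0294 without the filter, -0.0669 in limma, -0.0176 with the replicate block, -0.12 without GC_RT replicates 2 and 4, and -0.0886 to 0.17 without 1 library. Klf9 was -0.0454 without the filter, -0.0384 in limma, -0.28 without GC_RT replicates 2 and 4, and -0.15 to 0.11 without 1 library. Crisp1 was -1.56 without GC_RT replicates 1 and 5, and -1.81 to 6.01 without 1 library. The causes were not tested. Of 102 named genes called at 22 °C, 85 were called under all 30 alternatives, and of 19 called for the difference, 8 under all 29. No scaling moved the median of all genes by over 0.1 or the share of higher calls by over 10 points. The shallowest library limits genes of low level, and intervals between libraries do not separate animals.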
